A study of Mus musculus with 96 samples.

Results

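Galm, Galk1, Galt, Ugp2 and Galk2 encode enzymes of galactose metabolism, and their mRNA was followed in liver, skeletal muscle and cerebral cortex of mice on 2 feeding schedules. The genes were picked by name in the table of read counts, where each symbol occurs once, and they are 5 of its 56748 genes. Galactose from milk sugar is turned into glucose metabolites by the Leloir pathway, which is most active in the liver. The mutarotase GALM converts the sugar between its ring forms, galactokinase GALK1 phosphorylates it, and the transferase GALT exchanges the phosphorylated sugar for the glucose of UDP-glucose, so that UDP-galactose is formed and a glucose phosphate is set free. UGP2 makes UDP-glucose, the donor used by GALT and by glycogen synthesis, whereas GALK2 resembles galactokinase in sequence but acts on N-acetylgalactosamine, an amino sugar of glycoproteins.

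The mice were C57BL/6 animals that were fed ad libitum (AL) or by intermittent fasting (IF), which withheld food for 16 h each day, from clock hour 16 to clock hour 8. Diets began at 6 weeks of age and went on for 4 months, and tissue was collected between clock hours 7 and 12 after a perfusion with saline. The groups were male AL mice 1 to 8, male IF mice 9 to 16, female AL mice 25 to 32 and female IF mice 33 to 40. By the numbers in the library names every mouse gave all 3 tissues, although the cortex column of male AL mouse 1 goes against its label. The study describes these ages and hours for male mice, and the labels add the females with their diets but without them. The females carry mouse numbers of their own, so sex cannot be told apart from the set of mice. The libraries, read on an Illumina NovaSeq system, were made from polyadenylated RNA and keep the strand, and 95 of the 96 deposited count columns were used. They held between 26097314 and 49838004 reads counted on genes, with a median of 36132954.

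Checks of the labels come before the results. In 47 libraries labelled male, Xist, the RNA that silences the X chromosome of females, had between 0 and 25 reads and 4 Y-linked genes together had between 2166 and 7206. In the 48 libraries labelled female, Xist had between 1407 and 56808 reads and the Y-linked genes between 0 and 3. The column left out is labelled as the cortex of male AL mouse 1, but it held 10219 Xist reads and 0 reads of the Y-linked genes, which goes against that label. The group of male AL cortex therefore has 7 mice, and where the column changes a result, the value with it is given. The tissue labels fit their defining markers, as summed counts per 1000000 scaled counts of a library (CPM) of 5 hepatocyte genes lay between 36700 and 101000 in liver, those of 5 muscle fibre genes between 111000 and 171000 in muscle, and those of 5 neuronal genes between 5000 and 7250 in cortex. Hepatocyte genes summed to at most 5.71 CPM in muscle. In cortex their sum reached 4340 CPM, mostly of the transthyretin gene Ttr, which the choroid plexus also expresses. Among male livers, IF mice 9 and 10 correlated least with their group's median profile (Pearson r across genes, which are not independent replicates, 0.9676 and 0.9651).

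Levels are compared between genes and tissues as CPM per kilobase of gene length, scaled over the 95 libraries together. In the liver of male AL mice, Galt had the highest level, with a lowest value of 69.4, a median of 74.0 and a spread small enough to stay above every value of the other genes. Ugp2 followed with a median of 45.8, then Galm with 31.9 and Galk1 with 25 CPM per kilobase, and the ranges of Galm and Galk1 overlapped. Galk2 stood far lower at a median of 0.762 CPM per kilobase. In the liver of female AL mice the medians were 56.6 for Ugp2, 46.7 for Galt, 38.7 for Galm and 32.7 for Galk1 CPM per kilobase, and each of these overlapped its neighbour in that order. The 5 mRNAs thus stood in a firmer order in male than in female liver, where only Galk2, at 1.32 CPM per kilobase, lay apart from the others.

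Muscle is the tissue in which UDP-glucose serves a large glycogen store, and there Ugp2 had the highest level of the 5 genes by far, with a median of 181 CPM per kilobase in male and 235 in female AL mice. Galt came next at 17.4 and 15.2 CPM per kilobase in males and females, then Galk1 at 3.94 and 3.22, Galm at 1.69 and 1.17, and Galk2 at 0.587 and 0.617, and no neighbours in this order overlapped in either sex. In cortex Galt led with medians of 17.8 and 20.4 CPM per kilobase in males and females, ahead of Ugp2 with 15.7 and 14, and these 2 genes overlapped in males but not in females. Galk1 was at 8.99 and 10.4 CPM per kilobase, Galk2 at 2.31 and 2.53, and Galm, the mutarotase, was last in cortex with 0.522 and 0.448. Galm is thus the member whose place changed most between tissues, with a median level in liver 18.8 times that in muscle in males and 33 times in females, in ranges that did not overlap.

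Across tissues, the levels of Galk1, Galt and Galm were highest in liver in both sexes, those of Ugp2 in muscle and those of Galk2 in cortex. Galk1 stood in the order liver, cortex, muscle without overlap, and Ugp2 in the order muscle, liver, cortex, also without overlap. The ranges of Galt in cortex and muscle overlapped in both sexes, and those of Galk2 in liver and muscle overlapped in males only. These orders are a description of AL mice, with no test. The spread between mice also differed by gene and tissue: Galm in cortex, with as few as 41 reads in a library, had a coefficient of variation between 21.7% and 43.5% over the 4 groups, whereas that of Ugp2 in cortex was between 2.9% and 5.99%. Galt in male AL liver varied by 3.49%, Galk1 in the same libraries by 26%, and Galk1 in female AL liver by 40.1%.

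**Figure D1:**
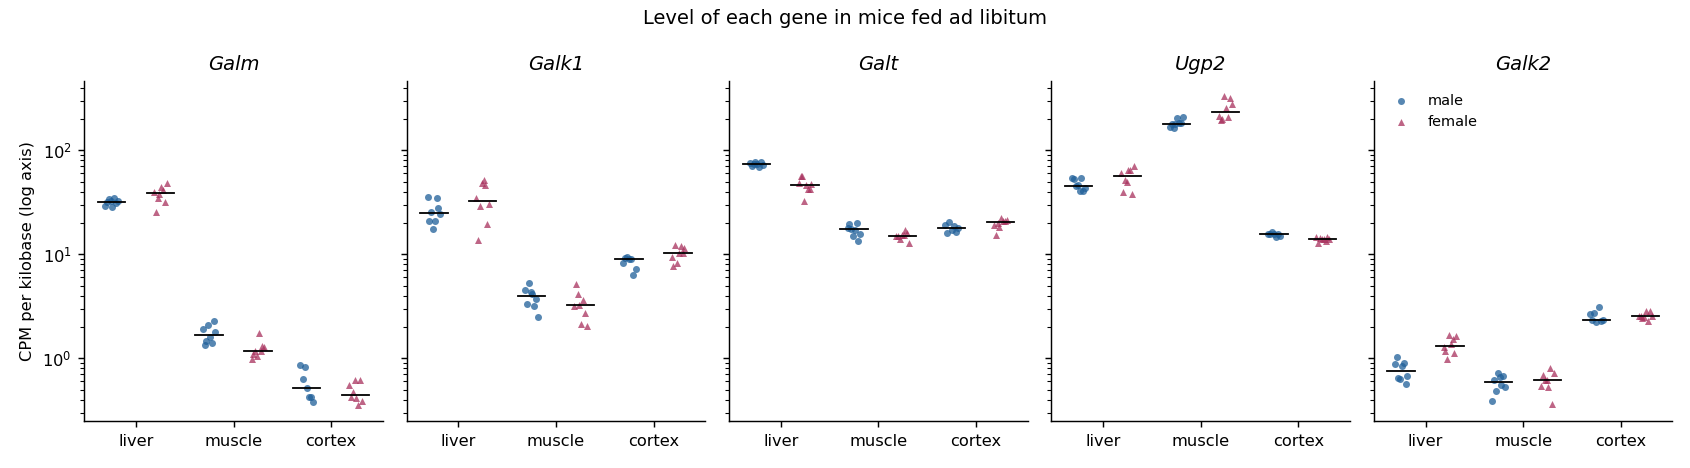
Levels of the 5 genes in mice fed ad libitum, in CPM per kilobase of gene length on a log axis, with 1 point per mouse (8 per group, 7 in male cortex) and a line at the median. Ugp2 is highest in muscle, with medians of 181 in males and 235 in females, Galk2 is highest in cortex, and the other 3 genes are highest in liver.

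The first comparison asks which of the 5 mRNAs differ between IF and AL in male liver. From here on values are CPM scaled within a tissue and sex, differences are log2 fold changes of IF against AL with their standard errors (SE) from edgeR's quasi-likelihood test over all genes, and a gene with a Benjamini-Hochberg adjusted p under 0.05 is called. Galk1 rose, Galk2 rose and Galt fell, which makes 3 of 5 members called, beside 44.6% of the 16204 genes tested, so the count by itself does not set these genes apart. Galk1, the galactokinase (ENSMUSG00000020766, chromosome 11 from 115899283 to 115903545, minus strand, GRCm39), ran from 21.5 over a median of 31.3 to 45.1 CPM in the 8 AL mice and from 113 over 147 to 171 CPM in the 8 IF mice. No IF liver came down to any AL liver, so the diets did not overlap. The log2 fold change was 2.15 (SE 0.14, adjusted p = 4.33e-11).

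Galt, the transferase of the next step (ENSMUSG00000036073, chromosome 4 from 41755228 to 41758695, plus strand), lay between 154 and 170 CPM in AL livers, with a median of 163, and between 59.7 and 90.1 CPM in IF livers, with a median of 70.6. All 8 IF mice were below all 8 AL mice. The log2 fold change was -1.20 (SE 0.09, adjusted p = 4.92e-10). Per kilobase, the ratio of Galk1 to Galt mRNA was between 0.223 and 0.498 in the AL livers of males (median 0.341) and between 2.8 and 4.8 in the IF livers (median 3.63), so the mRNA of the kinase was below that of the transferase in every AL male and above it in every IF male. In females the same ratio spanned 0.24 to 1.51 in AL and 0.544 to 1.22 in IF livers, with medians of 0.682 and 0.945 in overlapping ranges. In muscle and cortex its medians lay between 0.202 and 0.515 over the 8 groups, and no library had more Galk1 than Galt mRNA per kilobase.

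The span of Galt is crossed by Il11ra1, an interleukin receptor gene on the same strand, which shares 0 of its 4557 exon bases in the GENCODE annotation of GRCm39. Il11ra1 fell in the same male livers, from 87.3, 101 and 134 CPM (lowest, median, highest) in AL to 57.4, 62.3 and 88.8 CPM in IF mice (log2 fold change -0.64, SE 0.11, adjusted p = 6.59e-05), with an overlap of the highest IF and lowest AL values. In female liver it was not called (0.00, SE 0.13, adjusted p = 1.0). The libraries keep the strand, but the study does not state the strand setting of the counting, so for any gene with bases shared across strands, reads from those bases could have been given to either gene or to none. What part of a member's change comes with such reads was not tested.

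Galk2, the N-acetylgalactosamine kinase (ENSMUSG00000027207, chromosome 2 from 125701029 to 125826219, plus strand), ran from 3.06 over 4.12 to 5.68 CPM in male AL livers and from 5.05 over 7.33 to 11.5 CPM in male IF livers. Of the 8 IF mice, 7 lay above all AL mice, and the lowest, mouse 9, overlapped them. Its log2 fold change was 0.89 (SE 0.18, adjusted p = 0.000281). Galk2 shares 113 of 8968 exon bases with Cops2 and 283 with Fam227b, both on the opposite strand, and Cops2 was not called in male liver (log2 fold change 0.17, adjusted p = 0.17).

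The enzymes on either side of these steps moved less in male liver. Galm, the mutarotase that precedes the kinase (ENSMUSG00000035473, chromosome 17 from 80434900 to 80492530, plus strand), had 62.9 to 78.1 CPM in AL and 51.4 to 76.2 CPM in IF livers, with medians of 70.2 and 60.5. The groups overlapped, although 6 of 8 IF mice were below every AL mouse. Its log2 fold change of -0.19 (SE 0.09, adjusted p = 0.11) passed only without IF mouse 10 (-0.24, adjusted p = 0.0353), without IF mouse 11 (-0.26, adjusted p = 0.0393) or with the 7 mice per group that the study's proteome tables name (-0.24, adjusted p = 0.0435). Ugp2, which supplies UDP-glucose (ENSMUSG00000001891, chromosome 11 from 21271138 to 21321201, minus strand), had medians of 124 CPM in AL and 122 CPM in IF livers within ranges of 110 to 150 and 104 to 166 CPM. Its log2 fold change was -0.01 (SE 0.11, adjusted p = 0.966). Ugp2 shares 299 of 4991 exon bases with the antisense RNA gene Gm12043, which had a median of 0 CPM in liver.

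**Figure D2:**
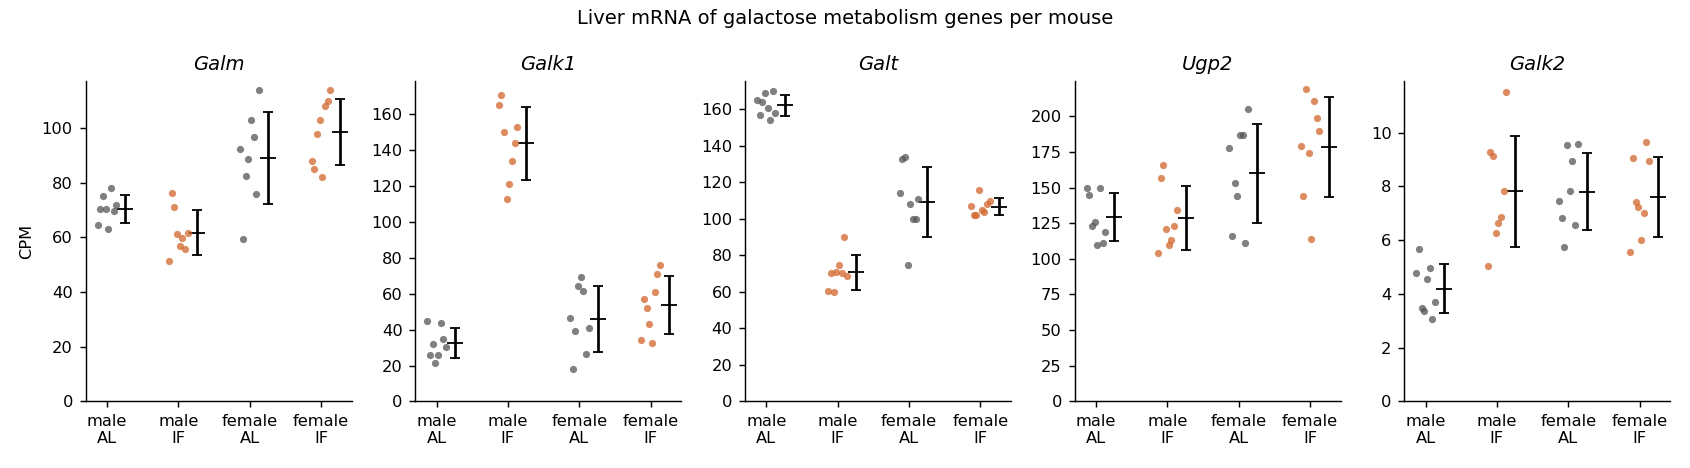
Liver mRNA of the 5 genes in CPM, with 1 point per mouse, 8 mice per group, and a bar for the mean with its SD. In males Galk1 lies at 113 CPM or more in every IF mouse and at 45.1 CPM or less in every AL mouse, and Galt shows the opposite order, whereas in females the diets overlap for every gene.

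Other cell types also moved in these livers. Bulk tissue was sequenced, so fewer cells of a type and less RNA per cell cannot be told apart. Of 5 erythrocyte genes, 3 were higher in male IF liver, Hbb-bs by a log2 value of 3.17 (adjusted p = 0.000167), Hbb-bt by 2.67 and Hba-a1, the most abundant, by 1.70. Their summed level was between 392 and 885 CPM in AL and between 665 and 6110 CPM in IF males, highest in IF mice 9 and 10 with 6110 and 4600 CPM, and between 111 and 1110 CPM in the females, and no gene of the list was at 0 throughout a group. With the mean of these genes as a covariate the changes were 1.91 for Galk1 (adjusted p = 2.97e-08), -1.11 for Galt (adjusted p = 1.9e-06) and 0.78 for Galk2 (adjusted p = 0.0185), and 4284 genes were called in place of 7234. With IF mice 9 and 10 left out, an alternative chosen after seeing the data, they were 2.06, -1.16 and 0.94.

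Markers of the liver's own minor cell types moved with the diet too. Among 5 genes each, 2 endothelial genes (Kdr and Stab2), 2 Kupffer cell genes (Clec4f and C1qa) and 3 cholangiocyte genes (Krt19, Krt7 and Epcam) were higher, as was 1 of 5 stellate cell genes (Dcn), while the cholangiocyte gene Sox9 and the hepatocyte gene Apoa1 were lower. Endothelial genes summed to 123 to 153 CPM in AL and 157 to 298 CPM in IF males, with Stab2 the most abundant, and Kupffer cell genes to 147 to 275 and 188 to 701 CPM, with Clec4f the most abundant. The cholangiocyte genes, led by Spp1, summed to 58.7 to 130 and 74.7 to 150 CPM, the stellate cell genes, led by Dcn, to 78.3 to 122 and 103 to 175 CPM, and the hepatocyte genes, led by Alb, to 45900 to 73800 and 36700 to 63700 CPM. No gene of these 5 lists was at 0 throughout a male liver group. Their part in the changes of Galk1, Galt and Galk2 was not tested.

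In female liver the same comparison called no member. Galk1 had 18.2, 43.7 and 69.3 CPM (lowest, median, highest) in AL and 32.5, 54.7 and 76.2 CPM in IF mice (log2 fold change 0.22, SE 0.24, adjusted p = 0.906). The female groups overlapped over most of their width. Galt lay between 74.9 and 134 CPM in AL and between 102 and 116 CPM in IF females, with medians of 109 and 106 (log2 fold change -0.03, SE 0.11, adjusted p = 0.974). The IF range of Galt lay inside the AL range. For Galk2 the medians were 7.63 and 7.32 CPM (-0.04 on the log2 scale), for Galm 90.5 and 100 CPM (0.15) and for Ugp2 165 and 184 CPM (0.16), with adjusted p between 0.882 and 0.979. With edgeR 0 of 5 members were called, beside 0.00% of 15938 genes, while 0 members and 919 genes had an unadjusted p under 0.05, and DESeq2 called 0 members and 6 genes.

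Whether males and females differ in their response was tested directly, in 1 model of the 32 liver libraries with sex, diet and their interaction. It was called for 3 of 5 members, beside 23.7% of 17658 genes. The response of Galk1 was lower in females by a log2 difference of -1.89 (SE 0.30, adjusted p = 1.45e-05), that of Galt higher by 1.20 (SE 0.14, adjusted p = 4.24e-08) and that of Galk2 lower by -0.90 (SE 0.23, adjusted p = 0.00391). The groups behind these differences are not alike in AL mice either. Per kilobase, Galt had a median of 74.0 in AL males and 46.7 in AL females without overlap, whereas in IF mice females were higher, at 44.7 against 31.8, again without overlap. For Galk1 the sexes overlapped under AL, at medians of 25 and 32.7 CPM per kilobase, and separated under IF, at 115 in males and 40.9 in females. For Galk2 they overlapped under both diets, with AL medians of 0.762 and 1.32 CPM per kilobase. Galm (0.37, adjusted p = 0.0797) and Ugp2 (0.20, adjusted p = 0.499) were not called, although Galm was with the 7 named mice per male group (0.42, adjusted p = 0.0493).

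**Figure D3:**
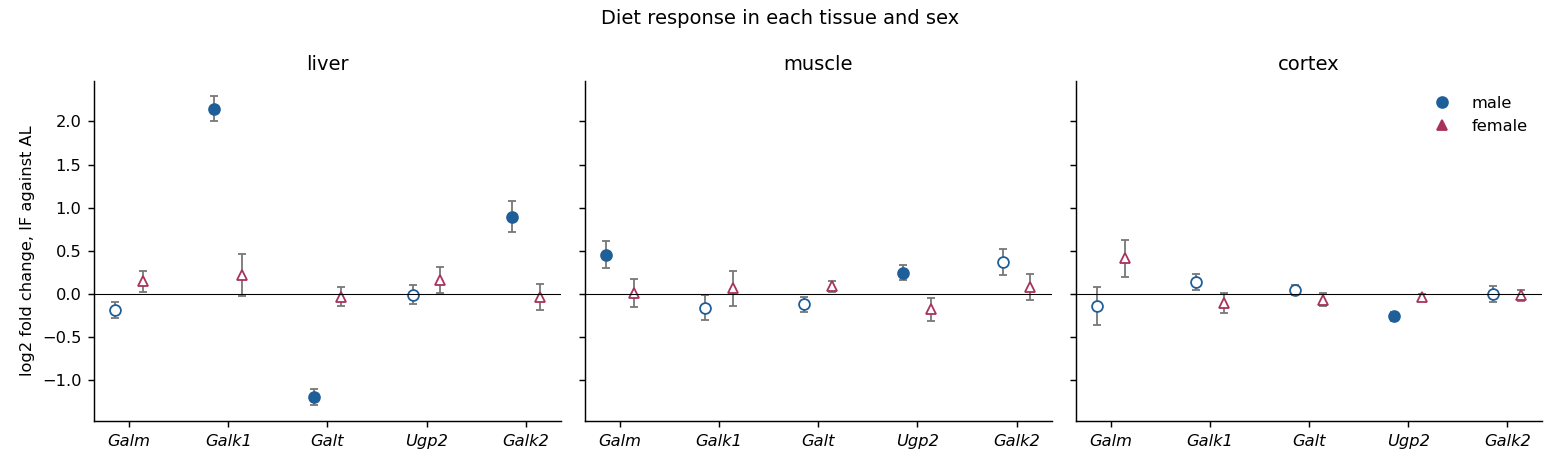
Log2 fold change of IF against AL for each gene, tissue and sex, with its standard error as a bar, circles for males and triangles for females, and filled symbols for an adjusted p under 0.05. Galk1 at 2.15, Galt at -1.20 and Galk2 at 0.89 in male liver are called, and all female symbols are open.

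In male muscle Ugp2 and Galm rose a little. For Ugp2 the AL mice ran from 374 over 414 to 476 CPM and the IF mice from 399 over 487 to 631 CPM. The groups overlapped, with 5 of 8 IF mice above every AL mouse. The log2 fold change was 0.25 (SE 0.08, adjusted p = 0.0344). Galm had 2.5, 3.12 and 4.26 CPM (lowest, median, highest) in AL and 2.96, 4.42 and 6.77 CPM in IF mice, again with 5 of 8 IF mice above every AL mouse. Its log2 fold change was 0.46 (SE 0.15, adjusted p = 0.035), and 2 of 5 members called stand beside 23.0% of 15025 genes.

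Both calls in male muscle depend on single mice. That of Ugp2 was lost without AL mouse 1, 2, 3 or 4 or IF mouse 11, 12 or 15 (adjusted p between 0.0564 and 0.0759), with a replicate block (0.24, adjusted p = 0.0608) and in a fit over both sexes (0.25, adjusted p = 0.121). That of Galm was lost without AL mouse 2, 3, 5 or 6 or IF mouse 11, 12, 15 or 16 (adjusted p between 0.0542 and 0.0919) and with the 7 named mice per group (0.44, adjusted p = 0.062). Galk2, with medians of 2.66 and 3.64 CPM, had a log2 fold change of 0.37 (SE 0.15, adjusted p = 0.0763) and passed without IF mouse 9 (adjusted p = 0.0358) or IF mouse 10 (adjusted p = 0.0479). Cops2, which shares exon bases with Galk2, was called in the same muscles (log2 fold change 0.20, SE 0.07, adjusted p = 0.045). The part of shared reads in the value of Galk2 was not tested. Galk1 (-0.16, adjusted p = 0.488) and Galt (-0.12, adjusted p = 0.366) were not called. Galk1 had 68 to 243 reads per muscle library, and Galk2 had 49 to 177.

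Fat cell markers moved in the same muscles. Of 5 adipocyte genes, 4 were higher in male IF muscle, Fabp4, the most abundant, by a log2 fold change of 1.81 (adjusted p = 0.0014), Adipoq by 2.25, Plin1 by 2.20 and Cidec by 2.52, and Lep was not called. Their sum was 143 to 530 CPM in AL and 334 to 2320 CPM in IF males, and 114 to 536 CPM in the females. No gene of the list was at 0 throughout a muscle group. Muscle fibre genes summed to 136000 to 150000 CPM in AL and 111000 to 160000 CPM in IF males, with Acta1 the most abundant, and 1 of 5, Ckm, was lower (log2 fold change -0.19, adjusted p = 0.0382). Of 5 fibroblast genes, led by Dcn, 2 were lower (Col1a1 and Col3a1), with a sum of 306 to 435 and 209 to 376 CPM. The 5 endothelial genes, led by Cdh5, summed to 159 to 205 CPM in AL and 153 to 223 CPM in IF males. Among them Stab2 had 18.8 to 28.5 CPM in AL and 28.1 to 35.2 CPM in IF males. Kdr went the other way, with 22.3 to 37.3 and 13.4 to 31.4 CPM. The part of the adipocyte, fibre, fibroblast and endothelial genes in the changes of Ugp2 and Galm was not tested.

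In female muscle the medians of Ugp2 were 565 CPM in AL and 497 CPM in IF mice, within ranges of 469 to 791 and 386 to 735 CPM (log2 fold change -0.18, SE 0.13, adjusted p = 0.646). Galm had medians of 2.29 and 2.37 CPM (log2 fold change 0.01, adjusted p = 0.994). The diets overlapped for every member in female muscle. With edgeR 0 of 5 members were called, beside 0.00653% of 15308 genes, which is 1 gene, Rn18s-rs5, named after its value was seen. At an unadjusted p under 0.05 there were 0 members and 1644 genes, and DESeq2 called 0 members and 91 genes. The interaction of sex and diet in muscle was called by edgeR for 0 of 5 members, beside 14.2% of 16346 genes, with 1 member and 4527 genes under an unadjusted p of 0.05 and 0 members and 2656 genes called by DESeq2. The member was Ugp2, with a log2 difference of -0.41 (SE 0.16, adjusted p = 0.0849), which was called with a replicate block (-0.39, adjusted p = 0.0311).

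In male cortex Ugp2 fell. The 7 AL mice had 65.4, 68.8 and 71.5 CPM (lowest, median, highest) and the 8 IF mice 53.0, 56.8 and 62.9 CPM. Every IF cortex lay below every AL cortex, by a margin small beside the level itself. The log2 fold change was -0.26 (SE 0.05, adjusted p = 0.00527), and this 1 of 5 members stands beside 7.21% of 18462 genes called. That share is 1332 genes, and the number ran from 638 without AL mouse 2 to 2060 without IF mouse 12. It passed without any single mouse (adjusted p between 0.00166 and 0.0135), but not with the column that goes against its label (-0.23, adjusted p = 0.0523). On the scale of library totals that column had 53.6 CPM of Ugp2, whereas the other male AL cortices had 65.6 to 70.8 CPM and the female AL cortices 58.1 to 68.3 CPM.

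Other members of the set showed small differences in male cortex. The log2 fold changes were 0.14 for Galk1 (SE 0.09), 0.05 for Galt (SE 0.06), -0.14 for Galm (SE 0.22) and 0.00 for Galk2 (SE 0.09), with adjusted p between 0.362 and 0.998. Of 5 oligodendrocyte genes, 4 were higher in the same IF cortices, Mbp, the most abundant, by 0.59 on the log2 scale (adjusted p = 0.0091), Mog by 0.53, Mobp by 0.66 and Cnp by 0.46. Their sum was 4440 to 6970 CPM in AL and 6180 to 10200 CPM in IF males. Of 5 astrocyte genes, led by Slc1a3, 1 was lower, Aqp4 (-0.51, adjusted p = 0.00258), and the sum of that list was 547 to 768 and 542 to 650 CPM. No gene of these lists was at 0 throughout a cortex group, and their part in the change of Ugp2 was not tested.

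In female cortex Ugp2 had medians of 61.7 CPM in AL and 60.1 CPM in IF mice, within ranges of 55.8 to 65.2 and 56.7 to 62.9 CPM. The log2 fold change was -0.04 (SE 0.04, adjusted p = 0.723). The IF range lay inside the AL range. Galm had the largest fitted change of the members in female cortex, 0.42 (SE 0.21, adjusted p = 0.464), at medians of 1.58 and 1.89 CPM. With edgeR 0 of 5 members were called, beside 0.0109% of 18403 genes, which are 2 genes, Gm11263 and mt-Atp6, named after their values were seen. Without single libraries edgeR called 0 to 2 genes, except for 254 without AL mouse 26. An unadjusted p under 0.05 was reached by 0 members and 2069 genes, and DESeq2 called 0 members and 73 genes. The interaction in cortex was called for 1 of 5 members, Ugp2 (0.23, SE 0.06, adjusted p = 0.0418), beside 2.03% of 19547 genes, and this call was lost with the 7 named mice per male group (0.21, adjusted p = 0.105), with the column that goes against its label (0.19, adjusted p = 0.231) and with no filter on low counts (0.23, adjusted p = 0.136).

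**Figure D4:**
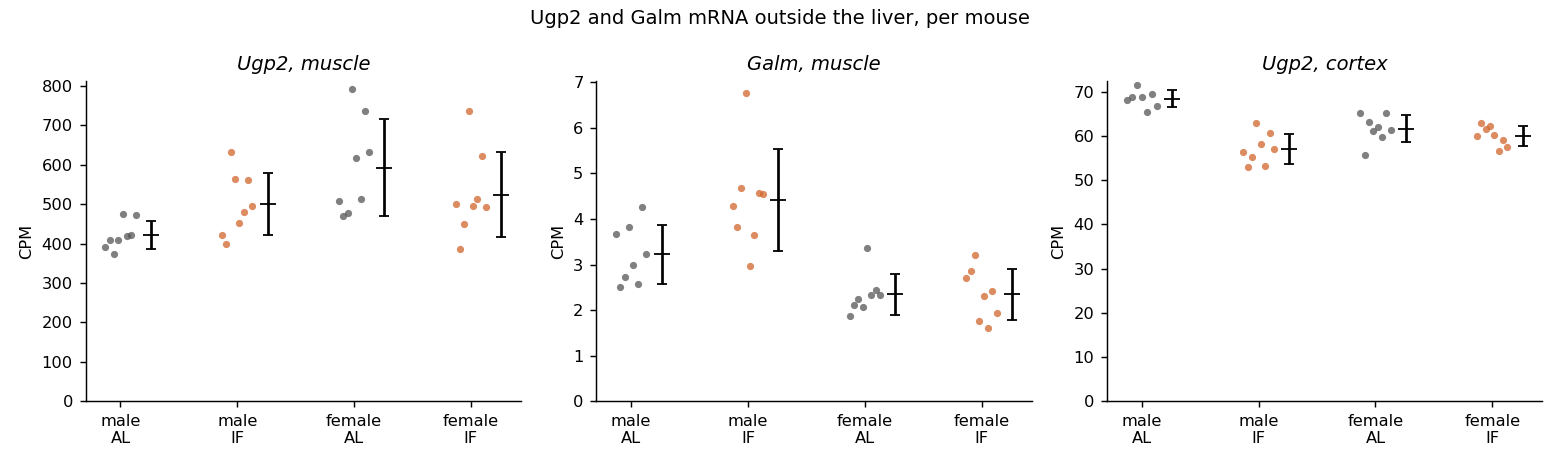
Ugp2 in muscle and cortex and Galm in muscle, in CPM, with 1 point per mouse (8 per group, 7 in male AL cortex) and a bar for the mean with its SD. Male cortex is the panel without overlap, with AL mice at 65.4 CPM or more and IF mice at 62.9 CPM or less.

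By the numbers in the library names the same male mice gave all 3 tissues, apart from the cortex column left out. The difference between tissues in the response of males was tested over the 47 male libraries. Liver against muscle gave 3 of 5 members called, beside 33.7% of 21608 genes, and liver against cortex 3 of 5, beside 30.1%. The response of Galk1 was higher in liver than in muscle by a log2 difference of 2.26 (SE 0.19, adjusted p = 1.97e-13) and than in cortex by 1.98 (SE 0.18, adjusted p = 4.26e-12). The response of Galt was lower in liver by -1.12 against muscle (SE 0.11, adjusted p = 3.75e-11) and by -1.28 against cortex (SE 0.11, adjusted p = 2.42e-12). Galk2 differed between liver and cortex by 0.86 (SE 0.20, adjusted p = 0.000836), and between liver and muscle by 0.48 (SE 0.21, adjusted p = 0.0684). Galm differed between liver and muscle by -0.69 (SE 0.21, adjusted p = 0.008), and Ugp2 was called in neither difference (-0.30, adjusted p = 0.0621, and 0.23, adjusted p = 0.188). Both differences share the liver libraries. In the 48 female libraries edgeR called 0 of 5 members for liver against muscle, beside 0.0611% of 21292 genes, and 0 of 5 for liver against cortex, beside 0.0564%. At an unadjusted p under 0.05 there were 0 members in each, with 2041 and 2494 genes, and DESeq2 called 0 members in each, with 216 and 269 genes.

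The phosphoglucomutases place the members in their context. Pgm1, whose product interconverts the glucose 1-phosphate set free by GALT and glucose 6-phosphate, rose in male liver from 81.3, 101 and 126 CPM (lowest, median, highest) in AL to 147, 166 and 196 CPM in IF mice (0.71, SE 0.10, adjusted p = 6.38e-06). Its groups did not overlap. Pgm2 was not called (-0.35, SE 0.22, adjusted p = 0.197). So the mRNA of the kinase Galk1 and of a mutase that takes up the freed glucose phosphate were higher, and that of the transferase Galt was lower. In female liver the change of Pgm1 was 0.15 (SE 0.16, adjusted p = 0.904), and the interaction was called for it in liver (-0.53, SE 0.19, adjusted p = 0.0453) and in muscle (0.43, SE 0.14, adjusted p = 0.034).

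Galk2 belongs with the amino sugars, and in the list of 11 genes that form and salvage UDP-N-acetylhexosamines, 10 were tested in male liver. Of these 4 were higher and 3 lower, so 7 of 10 were called beside 44.6% of all genes tested, with a median log2 fold change of -0.27 beside 0.06. Genes of this and the next lists were named after their values were seen. Besides Galk2, the higher ones were Uap1l1 (1.81, adjusted p = 1.58e-08), the deacetylase gene Amdhd2 (0.75, adjusted p = 9.37e-06) and the N-acetylglucosamine kinase gene Nagk (0.37, adjusted p = 0.0433). The lower ones were Gfpt1, whose product starts new synthesis (-1.26, adjusted p = 2.05e-05), the mutase gene Pgm3 (-1.15, adjusted p = 0.000204) and the pyrophosphorylase gene Uap1 (-0.51, adjusted p = 0.00138). In male cortex 1 of 10 was higher, beside 7.21% of all genes called, Uap1l1 (0.28, adjusted p = 0.0134).

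Genes that use the products of Ugp2 and Galt moved both ways in male liver, and the counts of this paragraph stand beside the same 44.6% of all genes called and a median of 0.06. Of 8 genes that use UDP-glucose, 3 were higher and 3 lower, with a median of 0.07: the liver glycogen synthase gene Gys2 rose (0.99, adjusted p = 4.81e-08) with Gyg, the glycogenin gene, and Alg5, and the muscle form Gys1 fell (-0.69, adjusted p = 0.00387) with Ugdh and Uggt2. Of 16 genes for the UDP-galactose carrier and galactosyltransferases, 14 were tested, and 2 were higher (B4galt3 and B4galt6) and 5 lower (C1galt1, C1galt1c1, B3galt1, B4galt7 and the carrier gene Slc35a2), with a median of -0.05. All 3 genes of the polyol pathway, which turns free galactose or glucose into sugar alcohols, were higher, Akr1b3 by 1.08, Sord by 0.78 and Akr1a1 by 0.60. Of 10 hexose transporter genes, 8 were tested, 2 were higher (Slc2a3 and Slc5a1) and 2 lower (Slc2a2 and Slc2a9), with a median of 0.04.

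The genes whose pattern over the 32 liver libraries was most like that of a member are given by Pearson correlation of log2 CPM among 13411 genes, as a description. The libraries share diet, sex and preparation, and the values say nothing of shared control. For Galk1 they were Tmem160 (0.980), Tufm (0.977) and Atp5b (0.976), and for Galt BC049987 (0.939), Tfpi2 (0.938) and Slc33a1 (0.935). Galk2 was most like Npc2 (0.849), Serpina3m (0.837) and Ctsz (0.836), Galm like Rab5b (0.918), Ubald2 (0.915) and Suclg2 (0.911), and Ugp2 like Slc31a1 (0.889), Prxl2a (0.842) and Qdpr (0.829). None of these 15 genes is on a pathway list named here.

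Because Galk1 and Galt moved in opposite directions in male liver, the stretches around their starts are shown, taken from RefSeq on GRCm38.p6, each from 250 bases before to 50 after the start. Of the 5 members 4 have an entry, Galk2, Galt and Ugp2 have 2 each, and Galm has none. The letters CACGTG, the same on both strands, occur once in the entry of Galk1 (chr11:116012670-116012969, minus strand), 17 bases before the start, and once in the first of Galt (chr4:41755267-41755566, plus strand), 42 bases before it. They are in none of the other 5 entries and in 7.15% of all 32851 promoters of this length. The letters GGGCGG, searched on both strands and present in 35.7% of promoters, occur 4 times in Galk1 and 2 times in this entry of Galt. CCAAT, present in 37.4%, occurs 2 times in Galt and AGGTCA, present in 16.3%, once, and neither is in Galk1, and TATAAA, present in 13.6%, is in none of the 7 entries. A match describes these letters only. Capitals mark CACGTG.
Galk1: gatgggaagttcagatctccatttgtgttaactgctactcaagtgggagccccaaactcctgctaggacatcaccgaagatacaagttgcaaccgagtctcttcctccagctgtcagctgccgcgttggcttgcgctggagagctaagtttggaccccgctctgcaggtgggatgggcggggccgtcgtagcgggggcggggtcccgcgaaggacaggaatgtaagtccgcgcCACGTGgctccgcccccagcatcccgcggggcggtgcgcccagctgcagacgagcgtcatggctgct
Galt: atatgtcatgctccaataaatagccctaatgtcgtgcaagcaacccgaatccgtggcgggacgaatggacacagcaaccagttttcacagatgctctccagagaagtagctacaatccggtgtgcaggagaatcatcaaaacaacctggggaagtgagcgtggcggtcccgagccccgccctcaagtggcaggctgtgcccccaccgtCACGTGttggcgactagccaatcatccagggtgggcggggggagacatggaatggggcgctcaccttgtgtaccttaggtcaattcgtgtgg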

How the data were processed

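The deposited table holds raw counts per gene, which the authors made with featureCounts from Hisat2 alignments on GRCm39. Gene lengths, in bases, are those of the authors' deposited table. Of 96 columns 95 were used; the column of male AL cortex mouse 1 was left out. Tests used edgeR 4.0.16 (TMM, quasi-likelihood, robust; filterByExpr with 10 counts and 15 in total) and limma 3.58.1 in R 4.3.3, with p adjusted over all genes tested and a threshold of 0.05. Alternatives used DESeq2 1.42.0, RLE factors, other filters, other sets of mice, covariates and blocks. The tests were run on simulated data with known changes: in male liver edgeR recovered 67.7% of genes changed by 1 and 90.1% of those changed by 2 on the log2 scale, with a false share of 0.071 among its calls. For the sex difference in liver it recovered 46.4% and 64.6%, with a false share of 0.018. DESeq2 recovered more, 73.1% and 95.6% in male liver, but with a false share of 0.153. Its false share was 0.13 in male cortex, against 0.029 with edgeR, and 0.064 for the sex difference in liver. The simulation changed only a small part of the genes, as many up as down, whereas 44.6% were called in male liver. The recovered and false shares therefore hold for the simulated setting and are not error rates of the calls in these data. Tables and figures used Python 3.11.15, pandas 2.3.3, numpy 2.4.6 and matplotlib 3.10.9. Within a tissue the tests treat mice as independent, and tissue differences treat libraries of the same mouse as independent unless blocked by mouse.

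Members and lists were chosen with earlier results of these data known. Genes named are the 5 members, Pgm1 and Pgm2 of their pathway list, the 3 genes most correlated with each member in liver at a mean CPM of at least 1, and other list genes called in liver of both sexes in the same direction at a log2 fold change of at least 1. No other list gene met this rule, so those the report names were chosen after their values were seen. Markers of cell types were read as lists. Some genes and lists that were analysed are not reported here. The study's methods name DESeq2 with unadjusted p.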

Additional observations from a re-analysis of the deposited data

Results flagged for a closer look

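In 3 of 60 groups of a gene, tissue, sex and diet 1 mouse lay apart from the others in a Dixon test, where chance alone gives about 1 in 20 groups. All 3 concern Galm, at low levels: IF mouse 12 in male muscle with 6.77 CPM (next 4.69), AL mouse 29 in female muscle with 3.37 CPM (next 2.45) and IF mouse 11 in male cortex with 3.35 CPM (next 1.92). The cause was not tested.

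The response to the diet differed between the sexes in liver for Galt (1.20), Galk1 (-1.89) and Galk2 (-0.90) and in cortex for Ugp2 (0.23). Between tissues of males it differed for liver against muscle in Galt (-1.12), Galk1 (2.26) and Galm (-0.69), and for liver against cortex in Galt (-1.28), Galk1 (1.98) and Galk2 (0.86). Females were a separate set of mice, so these values describe 2 sets that differ in sex and in whatever else differed between the sets.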

How the results depend on the processing

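In male liver, Galk1, Galt and Galk2 stayed called in all 9 alternatives, at 1.91 to 2.17, -1.23 to -1.11 and 0.78 to 0.94, and without any single library. Over all members and settings 882 log2 fold changes kept their sign and whether they were called, which says nothing of their size, 12 of the same sign became called, 22 were no longer called and 44 had the other sign, none of these a called value.

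Members called of 5 moved in male cortex to 0 from 1 with the column that goes against its label, and in male muscle to 1 from 2 with 7 mice per group, in 1 fit over both sexes and with the replicate block. Without single libraries male muscle gave 0 to 3. In the sex difference in cortex members called went to 0 from 1 with 7 mice per group, with that column included and with no filter beyond 1 count, and in muscle to 1 from 0 with the replicate block.

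The sign of Galk2 in male cortex turned to -0.0030 in 1 fit over both sexes, -0.0209 with 7 mice per group, -0.0205 with the column included, -0.0011 with no filter beyond 1 count and -0.0263 with the replicate block. Galm in female muscle turned to -0.0088 with the replicate block. Galk2 in the sex difference in cortex turned to 0.0015 with 7 mice per group and 0.0070 with the column included.

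Without single libraries these near-zero values ranged as follows: Galk2 in female cortex -0.0416 to 0.0181, Galk2 in male cortex -0.0301 to 0.0613, Galk2 in female liver -0.0940 to 0.0169, Galt in female liver -0.0983 to 0.0127, Ugp2 in male liver -0.1100 to 0.0258, Galk1 in female muscle -0.0390 to 0.1880, Galk2 in female muscle -0.0070 to 0.1549 and Galm in female muscle -0.0702 to 0.0979.

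Between liver and muscle of males Galk2 was called with DESeq2 (0.52, adjusted p = 0.0385), with RLE factors (0.52, adjusted p = 0.0475) and without IF mice 9 and 10 (0.52, adjusted p = 0.0457), and Ugp2 with 7 mice per group (-0.35, adjusted p = 0.0326) and with at least 10 counts in every library (-0.32, adjusted p = 0.0229). The settings without IF mice 9 and 10 and with a block by mouse were chosen after seeing the data, and the block by mouse changed no call of a member.

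Genes called in male cortex were 1332, against 2044 in 1 fit over both sexes, 498 with 7 mice per group, 2259 with DESeq2, 294 with the column included and 382 with the replicate block. Leaving out 1 library gave 638 (without AL mouse 2) to 2060 (without IF mouse 12). In male liver they were 7234, against 4284 with the erythrocyte covariate. For the sex difference in cortex they were 397, against 184, 706, 81 and 220 with 7 mice per group, DESeq2, the column included and no filter. In female cortex they were 2, against 4 in 1 fit over both sexes, 73 with DESeq2 and 0 with the erythrocyte covariate or the replicate block. In female liver DESeq2 called 6 where edgeR called 0, and in female muscle 91, where edgeR called 1, 38 in 1 fit over both sexes and 5 with no filter. Without female AL mouse 26 edgeR called 254 genes in cortex. For liver against cortex of females they were 12, against 269 with DESeq2, 28 with RLE factors, 5 with no filter, 2 with at least 10 counts, 1 with the replicate block and 0 with the block by mouse. For liver against muscle of females they were 13, against 216 with DESeq2, 4 with at least 10 counts, 3 with the replicate block and 1 with the block by mouse.

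The replicate numbers of the labels belong to different mice. Libraries with the same number correlated between -0.27 and 0.46 and did not correlate best with their own number, with 2 of 8 at most, so the numbers do not pair the mice. Apart from Ugp2 in muscle, the replicate block changed no call of a member.

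Limits: bulk RNA, no enzyme activity or protein, and sex not separable from the set of mice. Age, feeding hours and sampling hours are stated for males only, at 1 age and in 1 sampling window. The strand setting of the counting is not stated, which bears on genes with bases shared across strands.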

Other observations

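The omitted column's Ugp2 level, 53.6 CPM of the library total, lay below the other male AL cortices and below every female AL cortex (58.1 to 68.3 CPM), so its Ugp2 count does not place it with either AL group. Of all pairs of cortex libraries, this column and female IF mouse 40 differed least over the genes compared, at a chi-square of 4.29 per degree of freedom, where sampling noise alone gives about 1. Which mouse it came from was not tested.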
